A study of Mus musculus with 2 samples.

Results

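The genes described here are 10 members of the p53 network: Cdkn1a, Mdm2, Trp53inp1, Zmat3, Gadd45a, Ccng1, Bax, Phlda3, Sesn1 and Trp53, which encodes p53 itself. They were chosen by name, with earlier results of these data known, and all 10 were found among the 32285 features of both count tables. The cells came from islets of 12-week-old females on a C57BL/6 background and were sequenced singly as 2 libraries, 1 labelled control (Spopfl/fl) and 1 labelled SpopβKO, in which Spop was deleted in beta cells. SPOP is a substrate adaptor of a CUL3 ubiquitin ligase. Before dispersal with trypsin, all islets had spent 3 days in RPMI medium with 10 mM glucose, and dead cells and debris were then removed. The Cre driver, the deleted exons, the number of mice behind each library and whether the controls carry Cre are not given in the sources used here.

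The p53 protein is a transcription factor that is held low by the ubiquitin ligase MDM2 and is stabilised when DNA damage or other stress frees it from MDM2. It then binds a response element built of decamer repeats near its target genes and raises their transcription, among them genes that stop the cell cycle, genes that promote apoptosis, and Mdm2, which closes a feedback loop. In beta cells p53 is known for its part in stress responses and in limiting proliferation. Several of the genes, Cdkn1a and Gadd45a among them, also answer to other regulators, so their RNA is not a readout of p53 alone.

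The upstream sequence of the members was read first, because the members share a regulator by definition of the list. RefSeq promoter windows (GRCm38.p6, from 250 bases before to 50 bases after each transcript start) were at hand for 8 of the 10 genes, in 10 windows. Trp53inp1 and Zmat3 had no entry. Each window was searched for 1 decamer of the p53 consensus, the p53 half-site (3 purines, C, A or T at both next positions, G, then 3 pyrimidines), a pattern that reads the same on both strands. At least 1 match was present in 7 of the 8 genes, against 9.55% of all 27025 genes in the table. By window, 7 of the 10 windows held a match, against 8.36% of all 32851 windows of 300 bases. The window of Phlda3 held no match, which says only that these letters are not in this stretch. A match is a description of the sequence, and none of the measurements here read binding at it. Stretches of 120 bases around the matches of Cdkn1a (chr17:29090849-29090968, plus strand), Mdm2 (chr10:117710880-117710999, minus strand), Ccng1 (chr11:40755407-40755526, minus strand) and Bax (chr7:45467029-45467148, minus strand) are shown because these 4 genes cover arrest, feedback and apoptosis. Each is written 5′ to 3′ along its gene, with the decamers that match in capitals.
Cdkn1a: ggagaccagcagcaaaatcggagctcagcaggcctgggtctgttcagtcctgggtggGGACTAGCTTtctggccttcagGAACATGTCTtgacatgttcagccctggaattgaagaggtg
Mdm2: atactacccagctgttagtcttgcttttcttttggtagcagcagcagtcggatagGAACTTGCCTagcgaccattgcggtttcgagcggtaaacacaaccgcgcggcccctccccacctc
Ccng1: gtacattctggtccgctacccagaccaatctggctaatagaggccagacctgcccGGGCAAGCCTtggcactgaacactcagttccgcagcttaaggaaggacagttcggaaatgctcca
Bax: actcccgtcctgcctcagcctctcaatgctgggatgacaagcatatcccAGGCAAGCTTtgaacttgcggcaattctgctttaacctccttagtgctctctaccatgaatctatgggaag
Of the 2 Cdkn1a windows, 1 held 2 matches, the most of any window here, and the other held 0. The 2 matches began 73 and 51 bases before the transcript start of their window. The Mdm2 match began 186, the Ccng1 match 185 and the Bax match 201 bases before the start. Matches in Trp53 and Gadd45a began 75 and 40 bases before the start, and 1 of the 2 Sesn1 windows had a match 173 bases before it.

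There were 82541585 UMIs (identifiers that count RNA molecules) in 7768 barcodes of the control library, and 89977773 in 10033 barcodes of the SpopβKO library. After a filter on genes and mitochondrial UMIs, 6850 and 8842 cells remained. The libraries shared 21 barcodes, 14 of them among the cells kept. Each cell was assigned to the hormone with the most UMIs, where that hormone clearly led. This gave 3867 insulin-led cells in the control library and 6991 in the SpopβKO library, 1744 and 1024 Gcg-led (glucagon) cells, 115 and 106 Ppy-led (pancreatic polypeptide) cells, and 7 and 8 Sst-led (somatostatin) cells. In insulin-led cells all 7 beta-cell markers other than insulin were detected, and they summed to 16343 CPM (UMIs scaled to a common total, here of UMIs that are not from hormone genes) in the control and 27537 CPM in the SpopβKO library. Most of both sums was Iapp, at 15652 and 26321 CPM. Gcg-led cells held 5036 and 5843 CPM of the 5 alpha-cell markers other than Gcg. Spop RNA was not lower in insulin-led cells of the library labelled SpopβKO, at 94.8 against 75.4 CPM. The log2 ratio of Spop, SpopβKO over control, was 0.33 there and 0.07 in Gcg-led cells. The deleted exons are not known here and a 3′ tag can lie outside them, so these counts do not check the deletion. With 1 library per genotype there is no replicate, no test was made, and every interval below is a 95% interval for counting error only. Whether a difference belongs to the genotype or to the library cannot be told apart.

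Levels of the genes are CPM of the summed cells of a class, scaled between libraries by TMM (trimmed mean of M values). The hormone genes were left out of the total so that insulin RNA, which filled a different share of the 2 libraries, could not dilute the other genes. All 10 genes reached a mean of 10 CPM in every class. In insulin-led cells 9 of the 10 genes were lower in the SpopβKO library, against 56.5% of the 8838 genes at that mean, and 7 of the 10 were lower by at least 1.5-fold, against 3.36%. The median log2 ratio of SpopβKO over control was −0.79 for the 10 genes and −0.05 for all genes. Because the 10 genes were chosen with earlier results of these data known, these counts describe the list and test nothing.

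Among the genes of cell cycle control, Cdkn1a, which encodes the cyclin-dependent kinase inhibitor p21 (chr17:29090976-29100727 on mm10, protein-coding), stood at 465 CPM in control and 249 CPM in SpopβKO insulin-led cells. Its log2 ratio was −0.90 (−0.93 to −0.87). Gadd45a, a growth arrest and DNA damage response gene (chr6:67035096-67037457), stood at 163 and 87.0 CPM, a log2 ratio of −0.91 (−0.96 to −0.85). An annotated gene on the opposite strand overlaps Gadd45a. Ccng1, which encodes cyclin G1, an MDM2 partner (chr11:40748552-40755311), stood at 326 and 192 CPM, a log2 ratio of −0.77. All 3 were lower in the SpopβKO library by more than their counting intervals.

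The feedback and co-regulator genes differed in the same direction. Mdm2, the ubiquitin ligase that targets p53 (chr10:117688875-117710758), was at 139 CPM in the control and 78.5 CPM in the SpopβKO library, a log2 ratio of −0.82 (−0.88 to −0.76). Trp53inp1, a stress-induced nuclear protein that promotes p53 phosphorylation (chr4:11156431-11174379), was at 213 and 106 CPM, a log2 ratio of −1.01 that was the lowest of the 10. Zmat3, an RNA-binding zinc finger protein that controls splicing (chr3:32334792-32366014), was at 94.8 and 49.6 CPM, a log2 ratio of −0.93.

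Genes of cell death and of survival signalling had smaller ratios. Bax, the pore-forming apoptosis effector (chr7:45461697-45466898), was at 430 CPM in the control and 319 CPM in the SpopβKO library, a log2 ratio of −0.43 (−0.46 to −0.40). Phlda3, an inhibitor of AKT signalling (chr1:135766119-135769136), was at 72.3 and 46.7 CPM, a log2 ratio of −0.63. Sesn1, a sestrin that restrains TORC1 (chr10:41809935-41908424), was the 1 member that was higher in the SpopβKO library. It stood at 9.36 CPM from 362 UMIs in the control and at 13.4 CPM from 783 UMIs in the SpopβKO library, a log2 ratio of 0.52 (0.34 to 0.70). Trp53 itself (chr11:69580359-69591873) was at 46.6 and 37.6 CPM, a log2 ratio of −0.31. This ratio was the smallest in size of the 10.

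**Figure D1:**
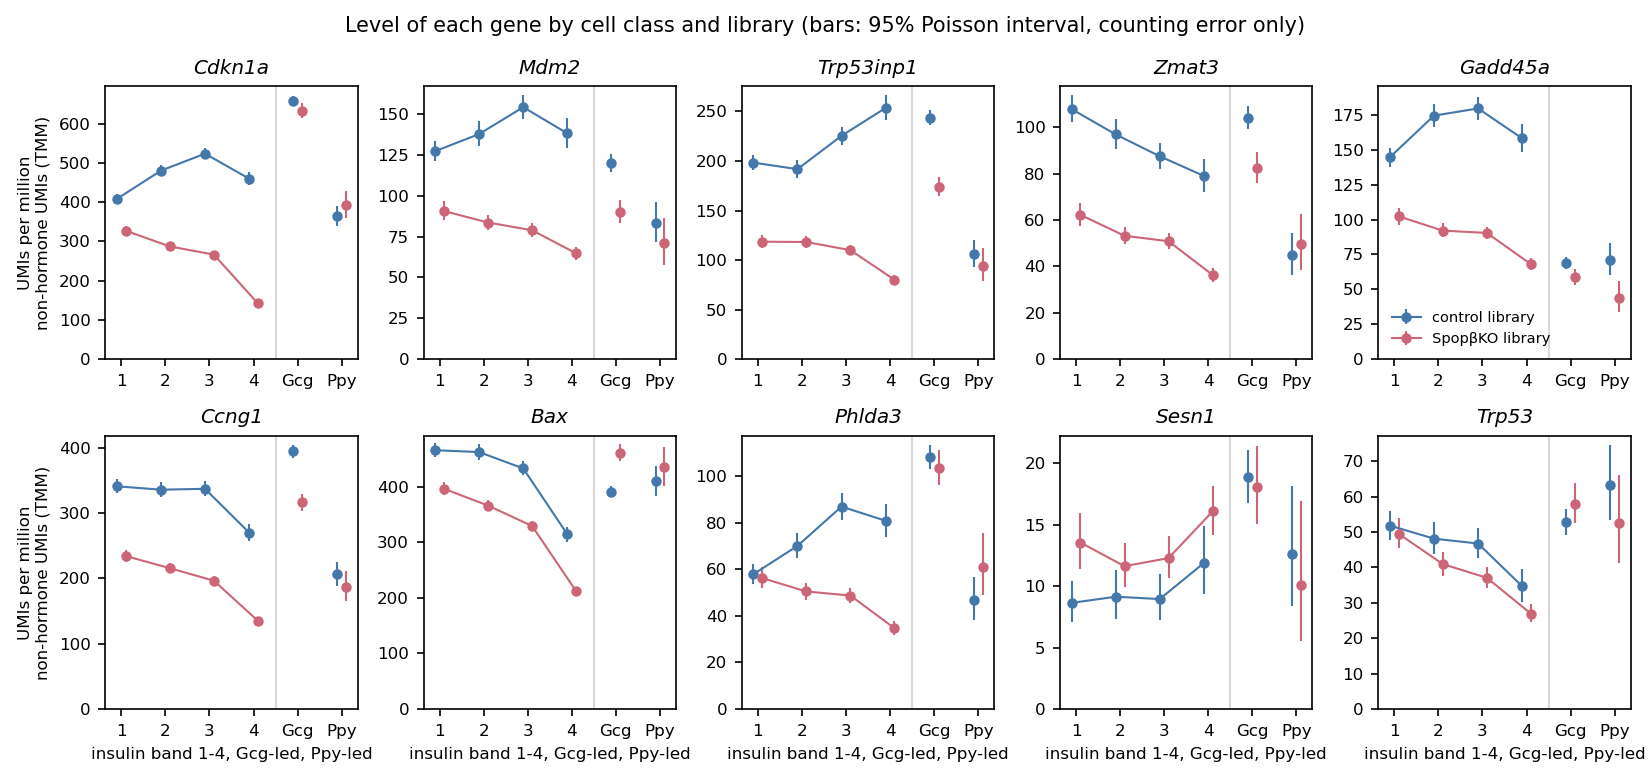
Level of each of the 10 genes in CPM (vertical axes start at 0) in insulin bands 1 to 4, Gcg-led and Ppy-led cells, for the control (blue) and SpopβKO (red) libraries; bars are 95% Poisson intervals for counting error. The red points of Cdkn1a go from 328 in band 1 to 142 in band 4, while its blue points in bands 1 to 4 lie between 408 and 524.

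The ratios of the 10 genes were smaller in size in Gcg-led than in insulin-led cells. In Gcg-led cells 8 of the 10 genes were lower in the SpopβKO library, against 50.9% of 8875 genes. Of the 10, 0 were lower by 1.5-fold, near the 0.755% of all genes. The median log2 ratio of the 10 was −0.14. Cdkn1a was at 657 CPM in the control and 633 CPM in the SpopβKO library, a log2 ratio of −0.05 (−0.10 to −0.0026). Among Gcg-led cells with 1% to 5% mitochondrial UMIs its ratio was −0.24 and the median of the 10 was −0.29. Trp53inp1 was at 243 and 174 CPM, a log2 ratio of −0.48, and Mdm2 was at 120 and 90.0 CPM, a log2 ratio of −0.42. Bax differed the other way, at 391 and 461 CPM, a log2 ratio of 0.24 (0.18 to 0.30). For Phlda3, Sesn1 and Trp53 the counting interval of the Gcg-led ratio included 0.

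The difference between the 2 classes was taken for each gene as its insulin-led log2 ratio minus its Gcg-led one. It was −0.85 (−0.91 to −0.79) for Cdkn1a, −0.67 (−0.74 to −0.60) for Bax, −0.68 for Gadd45a, −0.60 for Zmat3 and −0.57 for Phlda3. For Mdm2 it was −0.41 (−0.55 to −0.26), the smallest of the 9 genes that were lower. For Sesn1 it was 0.58 (0.24 to 0.93). In all 10 genes this interval excluded 0 for counting error. The share of all genes for which it does was not taken, so this count has no background beside it.

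In Ppy-led cells, few in both libraries, 6 of the 10 genes were lower in the SpopβKO library, near the 52.0% of all 8747 genes. Of the 10, 1 gene, Gadd45a, was lower by 1.5-fold, against 5.24% of all genes. Gadd45a was at 70.9 and 43.8 CPM there, a log2 ratio of −0.69 (−1.14 to −0.26). Cdkn1a was at 364 and 393 CPM, a log2 ratio of 0.11 (−0.05 to 0.27). The other 8 intervals included 0 as well, so a difference was not detectable at this depth.

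Sst-led cells were too few to order the libraries. Cdkn1a had 26 UMIs in the 7 control cells and 24 UMIs in the 8 SpopβKO cells, or 335 CPM (219 to 490) and 398 CPM (255 to 593). Bax had 32 and 18 UMIs. Gadd45a had 5 UMIs in the control and 0 in the SpopβKO cells, which allows up to 61.2 CPM, and Phlda3 and Sesn1 had 0 in the control, which allows up to 47.5 CPM, and 2 in the SpopβKO cells.

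The insulin-led cells were next divided into 4 bands by the share of their UMIs that came from Ins1 and Ins2, with the same limits in both libraries: up to 4.095%, up to 8.72%, up to 19.3%, and above. The bands held 1363, 742, 849 and 913 control cells and 1352, 1972, 1865 and 1802 SpopβKO cells. Fewer of the 10 genes stood apart between libraries where insulin was low. In band 1, 2 of the 10 were lower by 1.5-fold (Trp53inp1 and Zmat3), against 1.96% of all genes. The number was 6 of 10 in band 2 against 3.11%, 7 of 10 in band 3 against 4.48%, and 7 of 10 in band 4 against 10.8%. Across the 4 bands 36 of the 40 ratios were below 0, and the 4 above 0 were those of Sesn1. That is 9 of 10 genes in each band, where 58.2%, 56.8%, 52.3% and 50.5% of all genes were lower in bands 1 to 4.

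Cdkn1a gave the steepest course. Its log2 ratio was −0.32 in band 1, −0.74 in band 2, −0.97 in band 3 and −1.69 in band 4. In CPM the control stood at 408, 480, 524 and 460 from band 1 to band 4, and the SpopβKO library at 328, 287, 267 and 142. The 2 libraries did not overlap within their counting intervals in any band. Trp53inp1 had log2 ratios of −0.74, −0.70, −1.03 and −1.66, with 253 CPM in control and 80.2 CPM in SpopβKO cells of band 4. Phlda3 was the gene that differed least in band 1, at −0.04 (57.8 and 56.2 CPM), and it reached −1.22 in band 4 (80.8 and 34.7 CPM).

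For Gadd45a the ratio moved from −0.50 in band 1 to −1.22 in band 4, for Mdm2 from −0.49 to −1.09 and for Zmat3 from −0.79 to −1.12. Ccng1 stood at 341 and 234 CPM in band 1 (−0.54) and at 270 and 135 CPM in band 4. Bax moved from −0.23 to −0.57 and Trp53 from −0.07 to −0.36. Sesn1 stayed above 0, at 0.65 in band 1 and 0.44 in band 4, from 107 control and 145 SpopβKO UMIs in band 1 and 76 and 259 UMIs in band 4. Band 4 minus band 1 was below 0 for all 10 genes, with a median of −0.53, while over all 8423 genes the median was 0.04 and 46.1% were below 0. The counting interval of this difference included 0 for Sesn1, and for Trp53 it ran from −0.58 to −0.01.

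**Figure D2:**
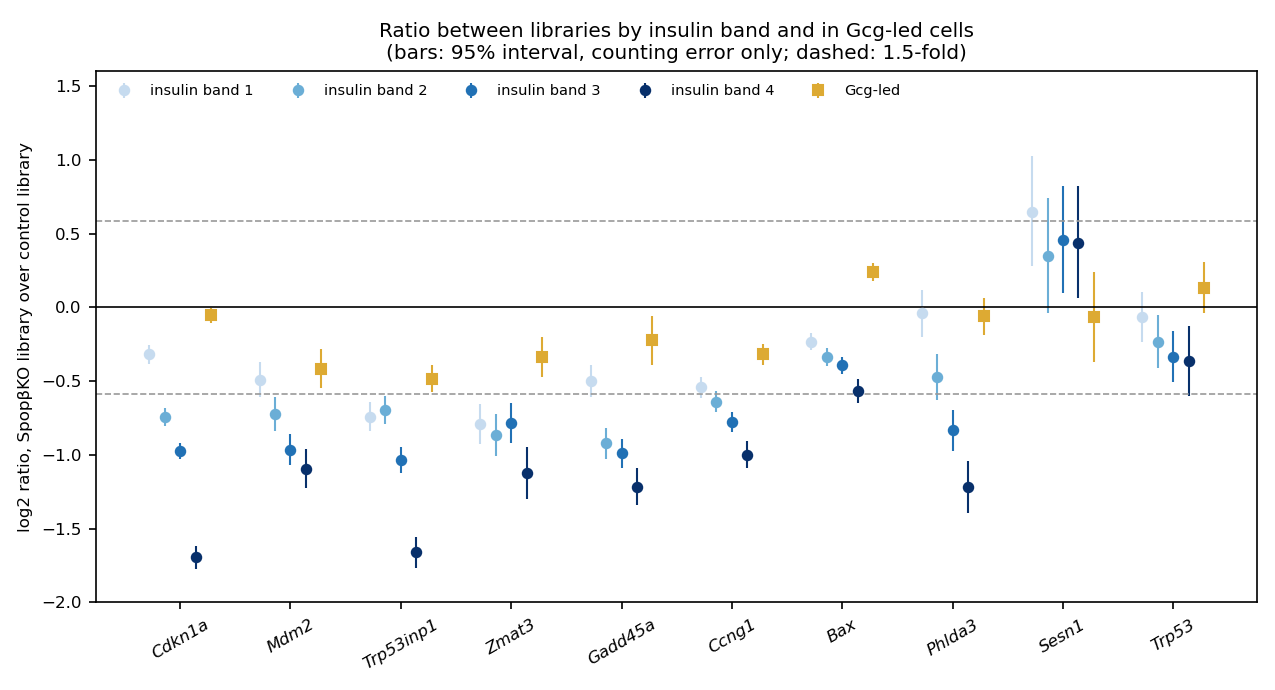
Log2 ratio of the SpopβKO over the control library for each gene in insulin bands 1 to 4 (light to dark blue circles) and in Gcg-led cells (yellow squares), with 95% intervals for counting error; dashed lines mark 1.5-fold. The circles of Cdkn1a step from −0.32 to −1.69, and its square lies at −0.05.

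Within each library the bands were then compared without the other library, on CPM with no scaling between libraries. In the control, 6 of the 10 genes were higher in band 4 than in band 1 and 4 were lower, where 66.3% of all 8631 genes were lower. Of the 10, 1 gene (Trp53) was lower by 1.5-fold, against 19.6% of all genes. Cdkn1a was at 404 CPM in band 1 and 451 CPM in band 4 of the control, a log2 ratio of 0.16 (0.09 to 0.22). Trp53inp1 was at 196 and 248 CPM, and Phlda3 at 57.2 and 79.1 CPM, log2 ratios of 0.34 and 0.47. These control directions depend on the total used: with all UMIs as the total, insulin included, 10 of the 10 genes were lower in band 4, Cdkn1a at −0.48. That total shifts the ratio of every gene down by the same amount, and the share of all genes was not taken with it. The count is therefore no result about the 10 genes. The sign of Cdkn1a also turned among control cells with no Hspa1a or Hspa1b UMI, at −0.031, and that of Trp53inp1 turned with each cell weighted equally, at −0.33. Mdm2 turned under all 3 of these settings.

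In the SpopβKO library 9 of the 10 genes were lower in band 4 than in band 1, against 62.6% of all 8960 genes, and 6 of them by 1.5-fold, against 9.05%. The median of the 10 was −0.72. Cdkn1a was at 331 CPM in band 1 and 145 CPM in band 4, a log2 ratio of −1.19 (−1.27 to −1.12). Bax was at 401 and 216 CPM, a log2 ratio of −0.89, and Ccng1 at 237 and 138 CPM, a log2 ratio of −0.78. Bax, Ccng1, Zmat3 and Trp53 were lower in band 4 than in band 1 in both libraries. Cdkn1a, Mdm2, Trp53inp1, Gadd45a and Phlda3 were higher in band 4 in the control and lower in band 4 in the SpopβKO library, although for Mdm2 the control interval included 0 (−0.01 to 0.23). How many of all genes went in opposite directions in this way was not counted.

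Gcg-led cells were also set against the insulin-led cells of their own library. In the control 2 of the 10 genes were higher by 1.5-fold in Gcg-led cells, Sesn1 and Phlda3, against 9.1% of all genes. In the SpopβKO library 6 of the 10 were, against 6.33%. Cdkn1a was at 660 CPM in Gcg-led and 460 CPM in insulin-led control cells, a log2 ratio of 0.52, and at 629 and 251 CPM in the SpopβKO library, a log2 ratio of 1.32. Gadd45a was lower in Gcg-led cells of both libraries, with 69.3 against 162 CPM in the control and 58.6 against 87.8 CPM in the SpopβKO library. On the same unscaled CPM, and leaving aside the few Sst-led cells (337 CPM from 26 UMIs), control Cdkn1a was lowest in Ppy-led cells (360 CPM), followed by bands 1, 4, 2 and 3 and then Gcg-led cells, and in this order the intervals of bands 4 and 2 overlapped. In the SpopβKO library, again without Sst-led cells, the order from the lowest was band 4, 3, 2, 1, Ppy-led and Gcg-led, and all neighbours in that order stood apart beyond counting error.

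To compare single cells at equal depth, each cell with at least 4000 non-hormone UMIs was thinned to 4000, which kept 2635 of the 3867 control and 4435 of the 6991 SpopβKO insulin-led cells. The UMIs of all 10 genes then summed to a median of 7 per cell in the control and 4 per cell in the SpopβKO library. In band 4 the medians were 7 and 2, and the quartiles were 4 to 10 in the control and 1 to 4 in the SpopβKO library. In band 1 the medians were 7 and 5, and in Gcg-led cells 8 and 7. The ranges from the 5th to the 95th percentile overlapped between the libraries in every class, while in band 4 the quartile ranges met only at 4. Cdkn1a had at least 1 UMI in 70.9% (69.1% to 72.6%) of thinned control cells and 46.9% of thinned SpopβKO insulin-led cells, and unthinned in 70.9% and 49.0% at median depths of 8857 and 7803 UMIs. In Gcg-led cells the thinned shares were 79.9% and 74.9%. No class here is known to lack these genes, so no background share from free RNA can be set beside them.

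**Figure D3:**
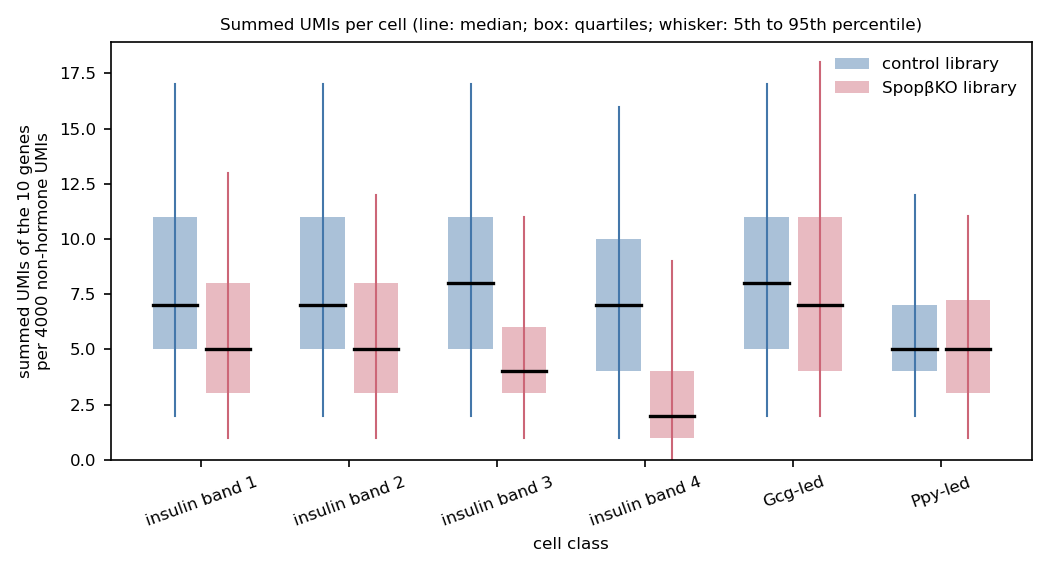
Summed UMIs of the 10 genes per cell after thinning to 4000 non-hormone UMIs, by cell class, for the control (blue) and SpopβKO (red) libraries; black lines are medians, boxes quartiles and whiskers the 5th to 95th percentiles over cells. In band 4 the medians are 7 and 2, and in Ppy-led cells 5 in both libraries.

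Co-expression across single cells was weak for most pairs of the 10 genes. Over the 45 pairs the median Pearson r in thinned insulin-led cells was 0.052 in the control (2635 cells) and 0.050 in the SpopβKO library (4435 cells), with 36 and 35 pairs above 0 and 12 pairs at or above 0.1 in each. Within bands 1 to 4 the pairs at or above 0.1 numbered 10, 16, 11 and 18 in the control. They numbered 12, 8, 8 and 8 in the SpopβKO library. The median r was 0.053 in both libraries in band 1, and 0.075 in the control and 0.041 in the SpopβKO library in band 4. The share over pairs of other genes was not taken, so these counts have no background beside them. In sparse counts correlations of this size are no finding, and cells of a library share their preparation. The exception in size was a group around Cdkn1a. Its r with Phlda3 was 0.27 in the control and 0.25 in the SpopβKO library, with Bax 0.21 and 0.26, and with Ccng1 0.20 and 0.26. In Gcg-led cells Cdkn1a and Phlda3 had an r of 0.22 in 1476 control cells and 0.35 in 761 SpopβKO cells. Sesn1 had a median r with the other members of −0.012 in the control and −0.026 in the SpopβKO library, and Trp53 of 0.033 and 0.030.

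**Figure D4:**
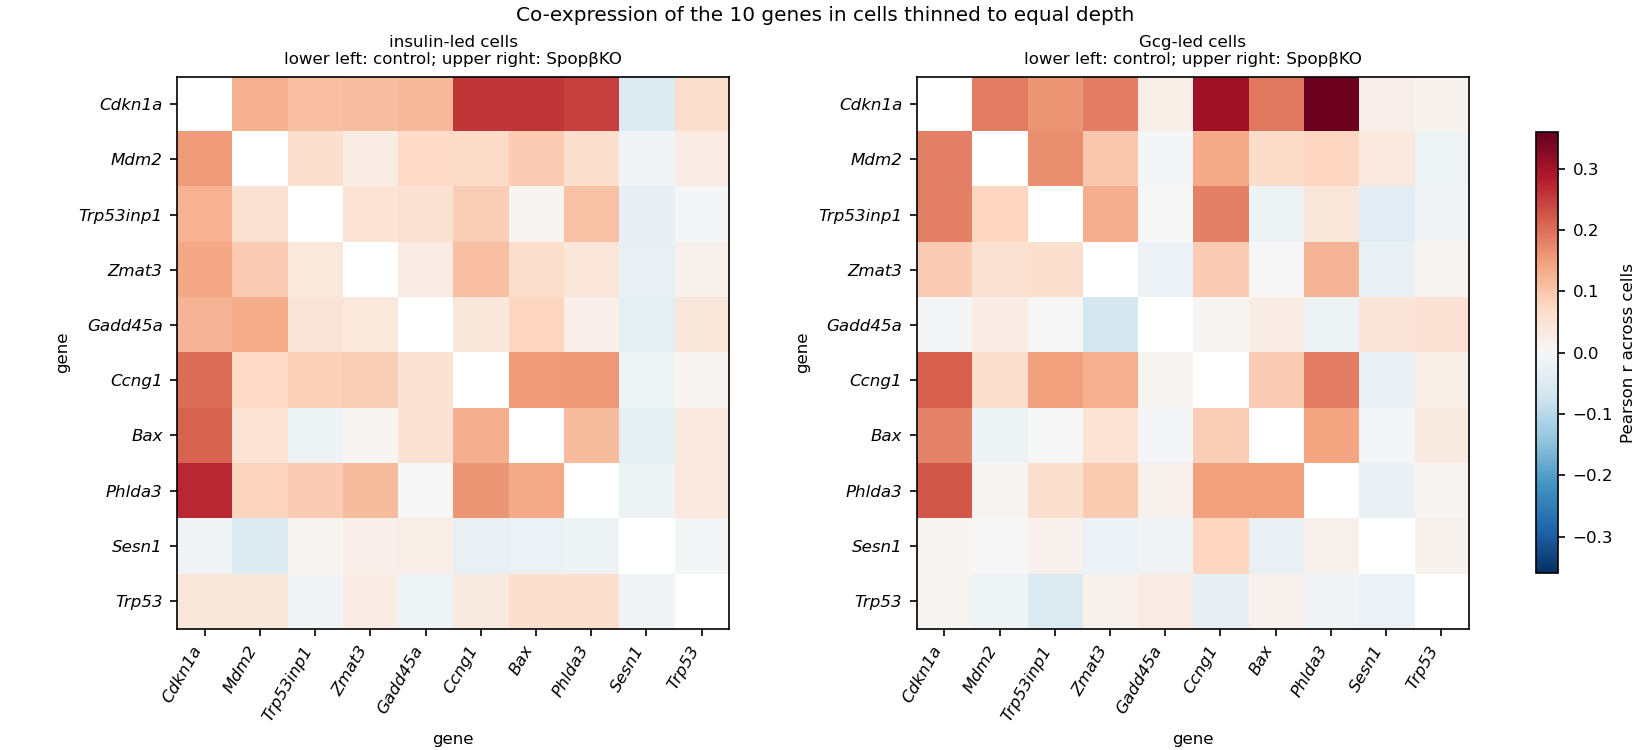
Pearson r across thinned cells for each pair of the 10 genes in insulin-led (left) and Gcg-led (right) cells, with the control below and the SpopβKO library above the diagonal; red is positive and blue negative. The darkest squares lie in the row and column of Cdkn1a, and the Cdkn1a and Phlda3 square reaches 0.35 in Gcg-led SpopβKO cells.

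Cells were also grouped by their own Cdkn1a count after thinning. Insulin-led cells with 3 or more Cdkn1a UMIs numbered 772 in the control and 607 in the SpopβKO library, and cells with 0 numbered 767 and 2353. Phlda3 was 4.40 times as high in the first group as in the second in the control, at 0.579 against 0.132 UMIs per cell, and 4.18 times as high in the SpopβKO library. Mdm2 was 1.80 and 1.96 times as high and Ccng1 1.64 and 2.29 times. Trp53 was at 0.209 against 0.164 UMIs per cell in the control and 0.189 against 0.127 in the SpopβKO library. Sesn1 was not higher in cells with more Cdkn1a, with ratios of 0.99 and 0.53. These ratios rest on few UMIs, 0.038 against 0.038 per cell in the control and 0.033 against 0.062 in the SpopβKO library, and have no interval. These groups were made from the data, are not groups of the study, and carry no test.

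Ranked over 5702 genes by the smaller of the 2 libraries' r with Cdkn1a, Phlda3 came first of all genes. The next 7 were Rps27l, Ddit3, Bax, Ccng1, Slc3a2, Eif2s2 and Hsp90aa1. Rps27l is a ribosomal protein paralog listed among the other p53 targets, with an r of 0.23 and 0.30, and Ddit3 encodes the stress transcription factor CHOP, with an r of 0.22 and 0.33. The 95th percentile of r with Cdkn1a over all ranked genes was 0.085 in the control and 0.11 in the SpopβKO library. Mdm2 ranked 27, Gadd45a 45, Zmat3 51, Trp53inp1 61 and Trp53 1005, and Sesn1 was below the level needed for ranking. The genes most like the sum of the members were Ddit3 (r of 0.35 and 0.40), Rps27l, Eif5, Hsp90aa1, Hspa5, Hspa8, Slc3a2 and Eif2s2, of 5694 genes ranked.

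Other genes of the pathway were read from lists, against the same background in insulin-led cells of 56.5% lower and 3.36% lower by 1.5-fold. Of 26 other p53 targets, 18 were measured at 10 CPM in insulin-led cells, and 13 were lower and 5 higher in the SpopβKO library, 1 lower by 1.5-fold, with a median log2 ratio of −0.10. The exonuclease gene Aen, at 107 and 70.1 CPM, had a log2 ratio of −0.61, and Bbc3, which encodes the apoptosis activator PUMA, had −0.55 (26.6 and 18.2 CPM). The antiproliferative gene Btg2 was higher in the SpopβKO library, at 189 and 252 CPM, and so was the membrane protein gene Perp, at 6.98 and 13.1 CPM. The median of this wider list therefore lay near that of all genes, −0.05, and away from the −0.79 of the 10 members. In band 4, 11 of 15 were lower, against 50.5% of all genes, and 4 by 1.5-fold, against 10.8%, with a median of −0.35.

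Of 18 regulators of p53, 13 were measured, 8 lower and 5 higher, near the share of all genes, with a median of −0.12. The kinase gene Atr was at 35.7 and 23.0 CPM (−0.64) and Mdm4, the MDM2 partner, at 79.6 and 61.4 CPM (−0.38). The kinase genes Hipk2, at 54.7 and 85.6 CPM, and Atm, at 37.0 and 45.1 CPM, were higher in the SpopβKO library. Of 18 cell cycle genes 7 were measured, and 5 were lower, with the replication clamp gene Pcna at 86.8 and 48.7 CPM (−0.84). Cdk4 had −0.34, Ccnd1 −0.28 and Cdkn2b 0.30. Of 12 apoptosis genes other than Bax 9 were measured and 5 were lower, near the share of all genes, with Bcl2l11, the gene of the activator BIM, at 31.5 and 17.6 CPM (−0.84), Cycs at −0.48, Diablo at −0.40 and Bad at 0.20.

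Stress genes also differed between the libraries in these cells. Of 16 genes of the CHOP and ATF4 pathway, a branch of the unfolded protein response, 15 were measured in insulin-led cells, 13 were lower, against 56.5% of all genes, and 6 were lower by 1.5-fold, against 3.36%, with a median of −0.53. Atf3 was at 124 and 57.4 CPM (−1.11), Chac1 at 60.2 and 37.0 (−0.70), Trib3 at 159 and 98.0 (−0.70) and Atf5 at 501 and 314 (−0.67). The same list had a median of −0.22 in Gcg-led cells, −0.30 in band 1 and −0.88 in band 4. In Gcg-led cells 15 of the 16 were lower, against 50.9% of all genes. Of 13 heat shock and dissociation genes 7 were lower and 6 higher in insulin-led cells. Hspa1a was at 55.8 and 13.5 CPM (−2.05), while Fos was at 33.7 and 138 CPM (2.03), Fosb at 16.9 and 71.8 CPM (2.08) and Egr1 at 32.6 and 122 CPM (1.91). In Gcg-led cells 11 of the 12 genes measured from this list were lower, with Fos at −0.34, Fosb at −0.38 and Egr1 at −0.36. Cells with an Hspa1a or Hspa1b UMI, without thinning, were 25.8%, 44.1%, 47.6% and 33.6% of control bands 1 to 4. In the SpopβKO library they were 14.7%, 12.7%, 15.3% and 10.4%. The part of the stress genes in the results on the 10 genes was not tested. Among insulin-led cells without an Hspa1a or Hspa1b UMI 9 of the 10 genes were lower in the SpopβKO library. The share of all genes was not taken in these cells. Cdkn1a had a log2 ratio of −0.80 there and Mdm2 of −0.68.

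Depth, mitochondrial share and markers of other cell types also differed between the libraries. Median UMIs per cell in bands 1 to 4 were 6033, 10142.5, 10500 and 8723 in the control and 6329.5, 3159.5, 8491 and 11344 in the SpopβKO library. The median mitochondrial share went from 2.15% in band 1 to 0.816% in band 4 of the control, and lay between 1.58% and 1.96% in all 4 bands of the SpopβKO library. In insulin-led cells the 5 acinar markers summed to 4.38 CPM in the control and 39.4 CPM in the SpopβKO library. This was mostly Cela1, at 2.05 and 37.6 CPM, while Cpa1, Ctrb1 and Pnlip were lower in the SpopβKO library. The 6 macrophage markers summed to 16.1 and 80.5 CPM, with C1qa alone at 6.48 and 57.6 CPM, the 5 duct markers to 274 and 468 CPM and the polypeptide cell marker Pyy to 524 and 1312 CPM. The 5 mesenchyme markers summed to 0.692 and 4.55 CPM, the 4 lymphocyte markers to 22.4 and 6.75 CPM, of which Cd79a alone held 22.3 and 6.66 CPM with 1 of the other 3 at 0 in each library, and the 5 endothelium markers to 2.10 and 1.75 CPM. The part of these sums in the results was not tested. In the SpopβKO library 9 of the 10 genes were lower among insulin-led cells with at least 4000 non-hormone UMIs. The count was also 9 among insulin-led cells with 1% to 5% mitochondrial UMIs. The share of all genes was not taken in these cells, so the counts have no background beside them.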

How the data were processed

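Per the file headers, Cell Ranger 6.0.0 made the deposited UMI counts, which were whole numbers and not normalised. Per the submitters' processing notes the build was mm10, and R 4.1.1 and Seurat 4.1.0 were named as tools. Islet cells were captured with 10x 3′ v3.1 chemistry per the labels' protocols. Median UMIs per kept cell were 8870 and 7638.5, which sets the counting intervals. The members and gene lists were chosen with earlier results of these data known.

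The cell filter asked for 500 or more genes and no more than 15% mitochondrial UMIs. A cell was assigned to a hormone (Ins1 plus Ins2, Gcg, Sst or Ppy) that held the most UMIs, at least 1% of them, at least 2 times each other hormone, and at most 0.1% mesenchymal, endothelial and immune UMIs. No doublet caller was run; the hormone rule removes cells of mixed hormones, 301 and 365, and an alternative left out the 5% of cells with the most UMIs. Insulin bands were quartiles of the insulin share over both libraries. Counts were summed per class and divided by non-hormone UMIs, with TMM factors (0.991 and 1.01 in insulin-led cells, matching edgeR 4.0.16). Unscaled CPM would shift the insulin-led median log2 ratio by 0.03. Intervals are exact Poisson for levels, exact conditional for ratios and Clopper-Pearson for shares, and differences of log2 ratios used a normal approximation to counting error. Background shares are over genes with a mean of at least 10 CPM in the class. The code was tested on simulated data with known fold changes. Alternatives changed scaling, weighting, filters, hormone rule and depth.

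Named genes were the 10 members, Spop, up to 4 genes per list with the largest ratios at 10 CPM in insulin-led cells, and the 8 genes most like Cdkn1a and most like the members' sum at 25 CPM. Ddit3 stands for 2 identifiers in the tables, and the first was used. Positions came from GENCODE release M21 and promoters from RefSeq on GRCm38.p6. Analyses used Python 3.11.15, numpy 2.4.6, scipy 1.17.1 and matplotlib 3.10.9.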

Additional observations from a re-analysis of the deposited data

Results flagged for a closer look

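Between the highest and the lowest insulin band, 4 of the listed members went in opposite directions in the 2 libraries with both counting intervals clear of 0. Only the members were put to this rule. The share of all genes that meet it was not taken, so the count of 4 has no background beside it. Each library is 1 sample, so the difference was not tested against replicates. For Cdkn1a the log2 ratio of band 4 over band 1 was 0.16 in the control and −1.19 in the SpopβKO library, a difference of −1.35 (−1.45 to −1.25). For Phlda3 it was 0.47 and −0.68, a difference of −1.15. For Trp53inp1 it was 0.34 and −0.55, a difference of −0.89, and for Gadd45a it was 0.12 and −0.58, a difference of −0.69. The control directions of all 4 turned when all UMIs served as the total, that of Trp53inp1 also with each cell weighted equally (−0.33) and that of Cdkn1a among cells without an Hspa1a or Hspa1b UMI (−0.031).

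Bax differed in opposite directions in 2 classes of the same libraries. Its log2 ratio of SpopβKO over control was −0.43 in insulin-led and 0.24 in Gcg-led cells, a difference of −0.67 that was likewise not tested against replicates. Here too the share of all genes with opposite directions was not taken.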

How the results depend on the processing

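Under 12 alternatives 9 of the 10 genes were lower in insulin-led cells of the SpopβKO library, and 6 to 7 were lower by 1.5-fold. The share of all genes was not taken for each alternative. The Gcg-led count lay between 7 and 8, the Ppy-led count between 5 and 7, the Sst-led count between 5 and 8 and the count over bands between 35 and 36 of 40. The control comparison of the highest with the lowest band depended on the total: with all UMIs, hormones included, 10 of the 10 genes were lower in band 4 instead of 4, and the log2 ratios of Cdkn1a (−0.48), Mdm2 (−0.53), Trp53inp1 (−0.30), Gadd45a (−0.52), Phlda3 (−0.17) and Sesn1 (−0.19) turned, since a larger insulin share enlarges that total. With each cell weighted equally Trp53inp1 (−0.33) and Mdm2 (−0.50) also turned, and among cells without an Hspa1a or Hspa1b UMI Cdkn1a (−0.031) and Mdm2 (−0.021) did, which left 6 genes lower in each case; the cause was not tested. Among cells with 1% to 5% mitochondrial UMIs the Gcg-led median went from −0.14 to −0.29. In the SpopβKO library the count was 9 to 10, Sesn1 turning (−0.31) with all UMIs as the total. Alternatives on the minimum hormone share, on cells with at least 4000 non-hormone UMIs, on 1% to 5% mitochondrial UMIs and on Sst-led cells, and the Ppy-led class, were chosen after seeing the data. No paired analysis was possible because each genotype has 1 library. Sst-led cells and Sesn1 are limited by depth.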

Other observations

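Cells outside the hormone classes gave values of the same 10 genes that belong to no comparison above. In cells where no hormone reached its minimum share, 753 in the control and 226 in the SpopβKO library, Cdkn1a was at 338 CPM (326 to 351) and 312 CPM (290 to 335) without scaling between libraries. Ccng1 was at 292 and 172 CPM and Gadd45a at 121 and 102 CPM in those cells. In cells of mixed hormones, 301 and 365, Cdkn1a was at 534 and 487 CPM and Ccng1 at 315 and 280.5 CPM. In cells with mesenchymal, endothelial or immune RNA, 63 and 122, Cdkn1a was at 456 and 226 CPM, Gadd45a at 67.4 and 57.6 CPM, and Ccng1 at 48.6 and 61.1 CPM. These last cells were not divided by cell type.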
